A study of Mus musculus with 15 samples.

Results

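Myc network genes encode basic helix-loop-helix leucine zipper proteins that meet on E-boxes. Members were chosen by name, as array probes annotated to Myc, Mycn, Max, Mxi1, Mnt or Mxd1. Of these 6 genes 5 had a probe, with 8 probes in all among 40726 on autosomes, and the array carried 19948 autosomal gene names. Mxd1 had no probe under that name and was dropped.

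Array comparative genomic hybridisation (aCGH) hybridises tissue DNA and reference DNA, labelled with different dyes, to the same probes, and the aCGH ratio used throughout is the log2 of tissue over reference. The study asked which chromosomes and loci change in liver tumours that arise after deletion of the spindle checkpoint gene Mad2l1 (Mad2 in the labels) and the tumour suppressor gene Trp53 (p53). Hepatocellular carcinomas (HCC, n = 5) and unaffected livers (n = 3) from 3 mice were hybridised on 15 arrays, in both dye orientations for 7 tissues and in 1 for HCC 3. All tissues were from the strain labelled C57BL/6.129-Mad2flox,p53flox,AlbuminCre. Mouse 3151, a female of 16.4 months with genotype Mad2(f/f) p53(f/+), gave HCC 1 (tumour 2), HCC 2 (tumour 1) and unaffected liver 1. Mouse 3760, a male of 13.8 months with genotype Mad2(f/f) p53(f/f), gave HCC 3 (tumour 2) and unaffected liver 2. Mouse 4033, a male of 13.9 months with the same genotype, gave HCC 4 (tumour 2), HCC 5 (tumour 1) and unaffected liver 3. Normal liver DNA from C57BL/6.129 mice of the opposite sex served as reference. Unaffected livers carried the same floxed alleles and the same Cre as the HCC. The albumin promoter drives Cre in hepatocytes, so other cells of a liver keep the floxed alleles, and in bulk DNA a smaller share of changed cells and a smaller change per cell cannot be told apart.

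Myc and Mycn activate transcription as heterodimers with Max, which also pairs with the other members. Mxi1, Mxd1 and Mnt compete for Max and recruit Sin3 corepressors, and loss of such an antagonist or gain of Myc is a known event in tumours. In mouse liver, forced expression of Myc in hepatocytes leads to carcinoma.

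Every member value rests on the hybridisation of the following probes, shown because 1 or 2 of them stand for a whole gene. They are written as in the array files, with positions as given there, and neither build nor strand is named. No letters are in capitals since no motif was marked.

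Myc, Chr15, 61818043 to 61818102: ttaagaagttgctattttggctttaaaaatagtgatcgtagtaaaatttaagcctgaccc

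Mycn, Chr12, 12945092 to 12945151: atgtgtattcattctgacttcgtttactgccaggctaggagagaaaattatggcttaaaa

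Max first probe, Chr12, 78043617 to 78043676: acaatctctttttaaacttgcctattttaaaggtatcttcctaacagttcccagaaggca

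Max second probe, Chr12, 78051438 to 78051497: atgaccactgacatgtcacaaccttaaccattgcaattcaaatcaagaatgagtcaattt

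Mxi1 first probe, Chr19, 53396923 to 53396982: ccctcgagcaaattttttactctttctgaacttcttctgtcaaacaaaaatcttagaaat

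Mxi1 second probe, Chr19, 53432632 to 53432691: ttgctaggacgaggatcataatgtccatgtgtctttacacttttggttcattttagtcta

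Mnt first probe, Chr11, 74646043 to 74646096: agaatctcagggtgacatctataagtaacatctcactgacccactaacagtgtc

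Mnt second probe, Chr11, 74657820 to 74657879: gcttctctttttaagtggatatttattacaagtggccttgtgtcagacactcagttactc

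The probes were 60 bases long, except the first Mnt probe with 54. GC content ranged from 31.7% for Myc and the first Mxi1 probe to 42.6% for the first Mnt probe. The probes of a gene lay 7.82 kb apart in Max, 11.8 kb in Mnt and 35.7 kb in Mxi1. On none of the 15 arrays was a member probe not well above background, saturated or marked as an outlier. The lowest signal over background of any of them was 1.75, for the Myc probe. Whether a probe is exonic or intronic was not determined, because the build of the positions is not named.

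Facts of the whole series were as follows. Noise of a single probe, from differences between neighbours, was 0.17 to 0.20 in HCC 1 to 4 and unaffected liver 1 and 0.083 to 0.11 in HCC 5 and unaffected livers 2 and 3. Chromosome X was above the reference in the 3 tissues of the female (0.30 to 0.88) and below it in the 5 tissues of the males (-1.30 to -0.68). The single Mad2l1 probe ranged from -1.22 to 0.59 in HCC and from 0.012 to 0.69 in unaffected livers, and the single Trp53 probe from -2.07 to -0.19 and from -0.88 to -0.069. The study describes an array probe in the deleted fragment of each gene, and whether it is the probe named for the gene was not determined. Arrays were scanned on 2 days from 4 slides. Centring each array on its most frequent value in place of its median lowered ratios by 0.25 in HCC 5 and 0.11 in HCC 1 and raised them by 0.096 in HCC 2. No autosomal probe passed limma's threshold between HCC and unaffected liver (0% of 40726 at an adjusted p of 0.05), and 3012 had an unadjusted p below 0.05. Over 19 autosomes limma called Chr15 alone, with a difference of 0.46 (SE 0.12, limma adjusted p = 0.00775). That call was lost with mode centring (limma adjusted p = 0.0534) and without unaffected liver 1, 2 or 3 (limma adjusted p = 0.102, 0.0576 and 0.0925).

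Myc, the transcription factor at the head of the network, stood above the reference in 4 of 5 HCC and near or below it in the unaffected livers. HCC 1 to 5 had aCGH ratios of 0.72, -0.068, 0.49, 0.91 and 0.46, and livers 1 to 3 of -0.24, 0.0069 and 0.020. HCC 2 lay within the range of the livers and the other 4 above all of them. Each HCC lay above the liver of its own mouse, by 0.96, 0.17, 0.49, 0.89 and 0.44 in HCC 1 to 5. Unaffected liver 1, the liver of HCC 1 and HCC 2, read -0.065 forward and -0.41 swapped, while its 4 probes flanking Myc averaged 0.057. On forward arrays HCC 1 read 0.0081, below the 0.13 of unaffected liver 3. For scale, a step from 2 to 3 copies in every cell would give a log2 ratio of 0.58. HCC averaged 0.50 ± 0.37 (SD, n = 5) and livers -0.069 ± 0.14 (SD, n = 3). This difference of 0.57 did not pass the test (exact permutation p = 0.0893, two-sided over 56 splits, whose smallest p is 0.0179). In the fit over all probes it had an SE of 0.19 and a limma adjusted p of 0.461. Whether the difference passed the permutation test turned on HCC 2 and on the centring. Without HCC 2 the difference was 0.72 (exact permutation p = 0.0286, the smallest that 35 splits give), and with mode centring 0.52 (exact permutation p = 0.0357). HCC 2 is the only HCC within the range of the livers, so leaving it out fixes that smallest p in advance. Forward arrays alone gave 0.35 (exact permutation p = 0.304) and dye-swap arrays alone 0.83 (exact permutation p = 0.114). Day 1 scans, with 2 HCC and 2 livers, gave 0.46. Day 2 scans, with 3 HCC and only unaffected liver 1, gave 0.76. The day values of every other member rest on the same tissues.

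The ratio of Myc followed that of Chr15, the chromosome that carries it. The Chr15 median was 0.54, 0.32, 0.35, 0.76 and 0.58 in HCC 1 to 5 and 0.013, 0.083 and 0.022 in unaffected livers 1 to 3. Its mean was at or above 0.3 in 5 of 5 HCC. The chromosome normalized ratio of Myc, its ratio minus that median, was 0.19, -0.39, 0.14, 0.15 and -0.12 in HCC 1 to 5 and -0.25, -0.076 and -0.0016 in the livers. The groups overlapped, with means of -0.0047 ± 0.24 (SD, n = 5) and -0.11 ± 0.13 (SD, n = 3). They lay 0.10 apart (exact permutation p = 0.536). It turned to -0.12 with forward arrays alone (exact permutation p = 0.625) and was 0.32 with dye-swap arrays (exact permutation p = 0.4). In HCC 2 the probe stood 0.39 below the Chr15 median, and its 4 flanking probes were lower than that median too, at -0.24, -0.27, -0.094 and -0.14. The segment that held Myc in HCC 2 had 656 probes, 40.2% of the chromosome, and a mean of 0.18 against the median of 0.32.

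**Figure D1:**
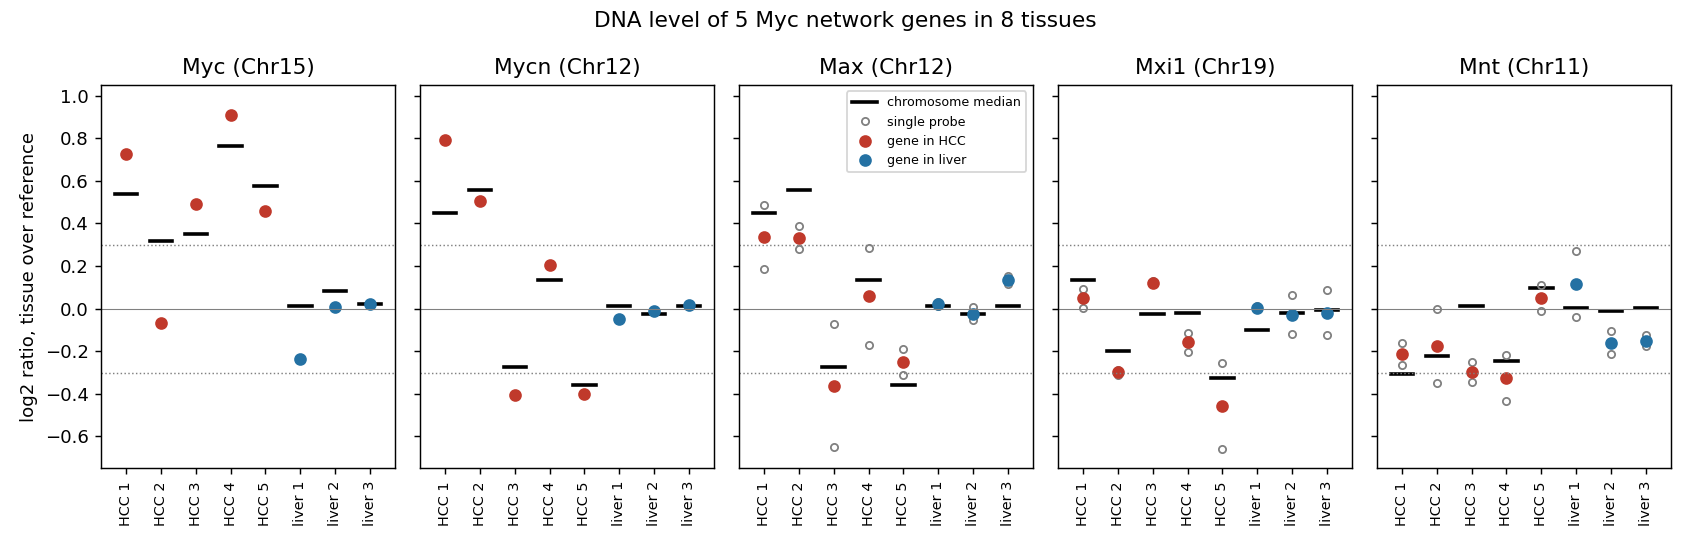
aCGH ratio (log2 of tissue over reference, y axis) of 5 genes in 5 HCC and 3 unaffected livers (x axis). Filled points are the gene, open points its single probes where it has 2, black bars the median of its chromosome, and dotted lines ±0.3. Points of Myc, Mycn and Max move with the bars from tumour to tumour, and no liver point passes ±0.3.

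Mycn, the paralog of Myc used in embryonic and neural tissue, stood above the reference in 3 HCC and below it in the other two. HCC 1 to 5 gave 0.79, 0.51, -0.40, 0.21 and -0.40, while livers 1 to 3 stayed at -0.048, -0.013 and 0.019. Both HCC of mouse 3151 stood high, and HCC 4 and HCC 5, from 1 mouse, stood on opposite sides of the livers. Relative to own liver the values ran from -0.42 in HCC 5 to 0.84 in HCC 1. HCC averaged 0.14 ± 0.54 (SD, n = 5) and livers -0.014 ± 0.033 (SD, n = 3), and 0.15 between them is small beside the spread in HCC (exact permutation p = 0.625, limma adjusted p = 0.883). Tissues scanned on day 1, with HCC 3 and HCC 5, gave -0.40 and those of day 2, with HCC 1, HCC 2 and HCC 4, gave 0.55, and with scan day as a block the difference was 0.0044. Without HCC 1 it was -0.0088 (exact permutation p = 1).

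Chr12, which carries Mycn and Max, had medians of 0.45, 0.56, -0.27, 0.13 and -0.36 in HCC 1 to 5, and between -0.025 and 0.014 in the livers. Its mean passed 0.3 upwards in 2 HCC and downwards in 1, and its difference of 0.10 between HCC and livers did not pass (limma adjusted p = 0.704). Minus that median, Mycn was at 0.34, -0.050, -0.13, 0.072 and -0.038 in HCC 1 to 5 and at -0.062, 0.011 and 0.0055 in the livers. HCC 1 was the one tissue past 0.3. Group means lay 0.054 apart (exact permutation p = 0.768). In HCC 1 Mycn lay in a segment of 440 probes, from the first probe of Chr12 to 52824006, with a mean of 0.61 against 0.39 for the next segment, which held Max. The flanking probes of Mycn in HCC 1 were 0.15, 0.20, 0.46 and -0.29 from the Chr12 median. After subtraction of own liver, Chr12 had 1 segment in 4 of 5 HCC, and in HCC 1 a segment of 440 probes with a mean of 0.61 again held Mycn.

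Max, with which every other member can pair, lies 65.1 Mb from Mycn in the files' positions. HCC 1 to 5 read 0.34, 0.33, -0.36, 0.057 and -0.25, and livers 1 to 3 read 0.020, -0.024 and 0.13. As for Mycn, both HCC of mouse 3151 were high and HCC 3 and HCC 5 low. Mycn minus Max was 0.46 in HCC 1 and between -0.15 and 0.17 in the other HCC. That gap did not differ between HCC and livers beyond the spread (0.12 ± 0.23, SD, n = 5, against -0.057 ± 0.063, SD, n = 3, exact permutation p = 0.304). For the level of Max, HCC averaged 0.023 ± 0.32 (SD, n = 5) and livers 0.043 ± 0.081 (SD, n = 3), which puts HCC at -0.021 from livers (exact permutation p = 0.875). Limma gave its 2 probes adjusted p of 0.997 and 0.964. Scans of day 1 gave -0.36 and those of day 2 gave 0.22.

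Minus the Chr12 median, Max was at -0.11, -0.22, -0.090, -0.077 and 0.11 in HCC 1 to 5 and at 0.0060, 0.00064 and 0.12 in livers 1 to 3. It was below own liver in 5 of 5 HCC, by 0.011 to 0.23. The groups overlapped through HCC 5, and their difference of -0.12 did not pass (exact permutation p = 0.179). Without HCC 5 it was -0.17 (exact permutation p = 0.0286, the smallest that 35 splits give), and over 21 alternatives it ran from -0.17 to -0.061. Leaving out the only overlapping HCC fixes that smallest p in advance. Both probes of Max disagreed most in HCC 3, with -0.074 and -0.65 on 1 array. They also disagreed in HCC 5 by dye, with 0.17 forward and -0.55 swapped at the first probe and -0.65 and 0.025 at the second.

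Mxi1, an antagonist that pairs with Max and represses E-box genes, lies on Chr19. It read 0.048, -0.30, 0.12, -0.16 and -0.46 in HCC 1 to 5, and 0.0048, -0.029 and -0.019 in livers 1 to 3. HCC 2, HCC 4 and HCC 5 lay below every liver and the other two above. Between the groups lay -0.13 (HCC -0.15 ± 0.24, SD, n = 5, livers -0.014 ± 0.017, SD, n = 3, exact permutation p = 0.393). This was -0.039 on forward arrays, -0.31 on dye-swap arrays, -0.069 with another background correction (normexp) and -0.057 without HCC 5, with exact permutation p from 0.171 to 0.786 over 19 alternatives. Limma gave adjusted p of 0.826 and 0.861 for its 2 probes. The Chr19 median was 0.13, -0.20, -0.024, -0.022 and -0.32 in HCC 1 to 5. Minus it, Mxi1 was between -0.14 and -0.087 in 4 HCC and at 0.15 in HCC 3, and between -0.013 and 0.11 in the livers. The groups then differed by -0.091 (exact permutation p = 0.25). HCC 3, which has 1 array, was the only HCC not below every liver. Without it they differed by -0.14 (exact permutation p = 0.0286, the smallest that 35 splits give), a p that this choice of HCC fixes in advance. The -0.091 became -0.0073 on forward arrays (exact permutation p = 0.911), -0.25 on dye-swap arrays (exact permutation p = 0.0571), -0.031 with normexp and -0.052 without unaffected liver 1. The probes of HCC 5 stood at -0.26 (first) and -0.66 (second), and the second read -0.28 forward and -1.04 swapped.

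Mnt, the antagonist expressed in most tissues, lies on Chr11. It read -0.21, -0.18, -0.30, -0.33 and 0.048 in HCC 1 to 5, and 0.11, -0.16 and -0.15 in livers 1 to 3. In 4 of 5 HCC it was below every liver and in none above all of them. This gave -0.13 between the groups, less than their spread (HCC -0.19 ± 0.15, SD, n = 5, livers -0.065 ± 0.16, SD, n = 3, exact permutation p = 0.268). It was -0.19 without HCC 5, the only HCC not below every liver (exact permutation p = 0.0286, the smallest that 35 splits give). Leaving out that HCC fixes the smallest p in advance. Without unaffected liver 1 the difference was -0.037 (exact permutation p = 0.762). Limma gave adjusted p of 0.849 and 0.848. Scans of day 1 put it at 0.031 and those of day 2, whose only liver is unaffected liver 1, at -0.35. The Chr11 median was -0.31, -0.22, 0.014, -0.25 and 0.097 in HCC 1 to 5. Minus it, Mnt was at 0.097, 0.046, -0.31, -0.078 and -0.049, against 0.11, -0.15 and -0.15 in the livers, a difference of 0.0036 (exact permutation p = 0.964). HCC 3 was the lowest, with -0.27 and -0.36 at its 2 probes while Chr11 as a whole was near 0. Unaffected liver 2, of the same mouse, was at -0.20 and -0.097 at these probes. Relative to that liver, chromosome normalized Mnt in HCC 3 was -0.16.

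For Mxd1 itself there was no value, and its surroundings on Chr6 are given in its place. Older names of Mxd1 were not searched, whereas the further genes of the network described below were matched by current or older name. By gene order in the RefSeq table for GRCm38.p6, the nearest genes with a probe were Asprv1 and C87436 before it and Gmcl1 and Anxa4 after it, all named beyond the rule. In HCC 1 to 5 Asprv1 read 0.51, 0.51, -0.29, 0.47 and -0.29 and C87436 read 0.30, -0.018, -0.064, 0.57 and -0.76. On the other side Gmcl1 read 0.26, 0.28, 0.10, 0.13 and -0.41 and Anxa4 read 0.37, 0.24, -0.086, 0.49 and -0.38. All 4 were above the reference in HCC 1 and HCC 4 and below it in HCC 5, and they differed in sign in HCC 2 and HCC 3. Unaffected livers 1 to 3 read 0.054, -0.022 and 0.053 at Asprv1 and -0.057, -0.060 and 0.0034 at C87436. They read 0.25, -0.020 and 0.020 at Gmcl1 and -0.23, 0.013 and -0.010 at Anxa4. Gmcl1 in HCC 1 and HCC 2 thus lay close to its value in the liver of their mouse. Minus the chromosome median, HCC differed from livers by 0.037, -0.075, -0.13 and 0.083 at these genes in that order.

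Across the 5 members, 8 of 25 gene and HCC pairs were at 0.3 or more above the reference, where 18.1% of pairs of all autosomal gene names were. At 0.3 or more below it were 5 of 25, where 18.7% of all were. None of the 15 liver values passed 0.3. Mnt in HCC 3 and Mxi1 in HCC 2, at -0.298 and -0.299, fell just short of the threshold. Of the 13 past 0.3, 61.5% were above. With mode centring 6 were above and 7 below, a share of 46.2% above, beside 13.2% and 23.5% of all pairs. No member had every HCC above every liver, as 6.06% of all gene names had, nor every HCC below, as 3.72% had. The median difference between HCC and livers was -0.021 over the members and -0.0079 over all autosomal gene names.

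In chromosome normalized ratios, 3 of 25 pairs were at least 0.3 from the chromosome median, namely Mycn in HCC 1, Myc in HCC 2 and Mnt in HCC 3, where 8.76% of all pairs in HCC were. In livers 0 of 15 were, where 3.81% of all were. Relative to own liver, these ratios were 0.41 for Mycn in HCC 1, -0.14 for Myc in HCC 2 and -0.16 for Mnt in HCC 3. None of the 3 remained at a threshold of 0.5. The median of the members was 0.0036 and that of all gene names -0.0036.

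**Figure D2:**
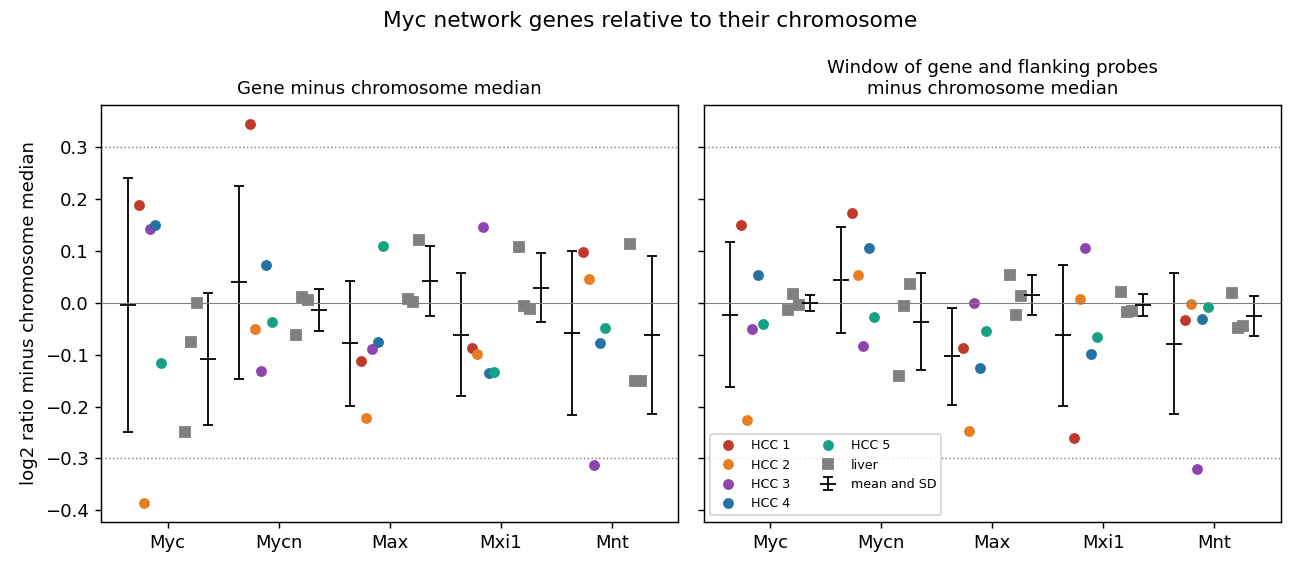
Left, ratio of each gene minus its chromosome median (log2, y axis). Right, the same for the window of the gene's probes and its flanking probes. Circles are HCC, squares unaffected livers, bars mean and SD, dotted lines ±0.3. Past a dotted line lie Myc in HCC 2, Mycn in HCC 1 and Mnt in HCC 3 on the left, and Mnt in HCC 3 on the right.

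Each member was next set among its flanking probes, 2 on either side, which give readings without the member's own probe. They lie 7.12 to 1047 kb from it. The mean of the 4 flanking probes alone gave a difference between HCC and livers of 0.41 at Myc (exact permutation p = 0.0357), 0.19 at Mycn (exact permutation p = 0.536) and -0.016 at Max (exact permutation p = 0.982). At Mxi1 it was -0.085 (exact permutation p = 0.411) and at Mnt -0.21 (exact permutation p = 0.125). These p are unadjusted over 5 comparisons. The flank means are levels without subtraction of the chromosome median, so they include any change of the whole chromosome. The flanks of Myc, which name AK015045 and AK043790 beside an unnamed position and lie 32.6 to 1047 kb away, stood at 0.68, 0.13, 0.25, 0.79 and 0.55 in HCC 1 to 5 and at 0.057, 0.12 and 0.016 in the livers. HCC 2 was again the lowest HCC.

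Windows of member and flanks, minus the chromosome median, differed between HCC and livers by -0.022 for Myc (exact permutation p = 0.768), 0.080 for Mycn (exact permutation p = 0.357) and -0.12 for Max (exact permutation p = 0.0714). For Mxi1 the difference was -0.058 (exact permutation p = 0.589) and for Mnt -0.054 (exact permutation p = 0.75). None of the 5 passed. The Max window ran from -0.16 to -0.063 over 20 alternatives (exact permutation p from 0.0357 to 0.536). It passed with 5 flanking probes on either side, at -0.072, and was -0.065 with dim probes left out (exact permutation p = 0.25) and -0.063 with normexp (exact permutation p = 0.536). Of 25 windows in HCC 1 passed 0.3, that of Mnt in HCC 3 at -0.32. It held Mett10d, a methyltransferase gene, at -0.15 and -0.78, Mnt at -0.27 and -0.36, and Sgsm2, a GTPase regulator, at -0.11 and -0.27. All 6 of its probes were thus below the Chr11 median in HCC 3, on a single array. Relative to unaffected liver 2, of the same mouse, the Mnt window in HCC 3 was at -0.27.

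Flanking values were not smooth. Near Mxi1, the second probe of Smndc1, a splicing factor gene, stood at -1.18 from the Chr19 median in HCC 1, and read -2.03 forward and -0.056 swapped. The first Smndc1 probe, 29.0 kb from Mxi1 where the second is at 31.1 kb, was at 0.13. Near Max, an unnamed probe 194 kb away was -0.62 in HCC 2 and -0.75 in HCC 4 from the Chr12 median and between -0.18 and -0.057 in the other HCC. In HCC 2 it read -0.86 forward and 0.73 swapped, and in unaffected liver 1 -0.98 and 1.56. This probe is part of the Max window and has the lowest HCC mean there, -0.34 from the Chr12 median against 0.037 in livers. The other named flanks were AK014875, AK015836 and AK017761 at Mycn, Fntb at Max and AK005607 at Mxi1. Fntb, a subunit of protein farnesyltransferase, was between -0.27 and 0.029 in HCC.

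**Figure D3:**
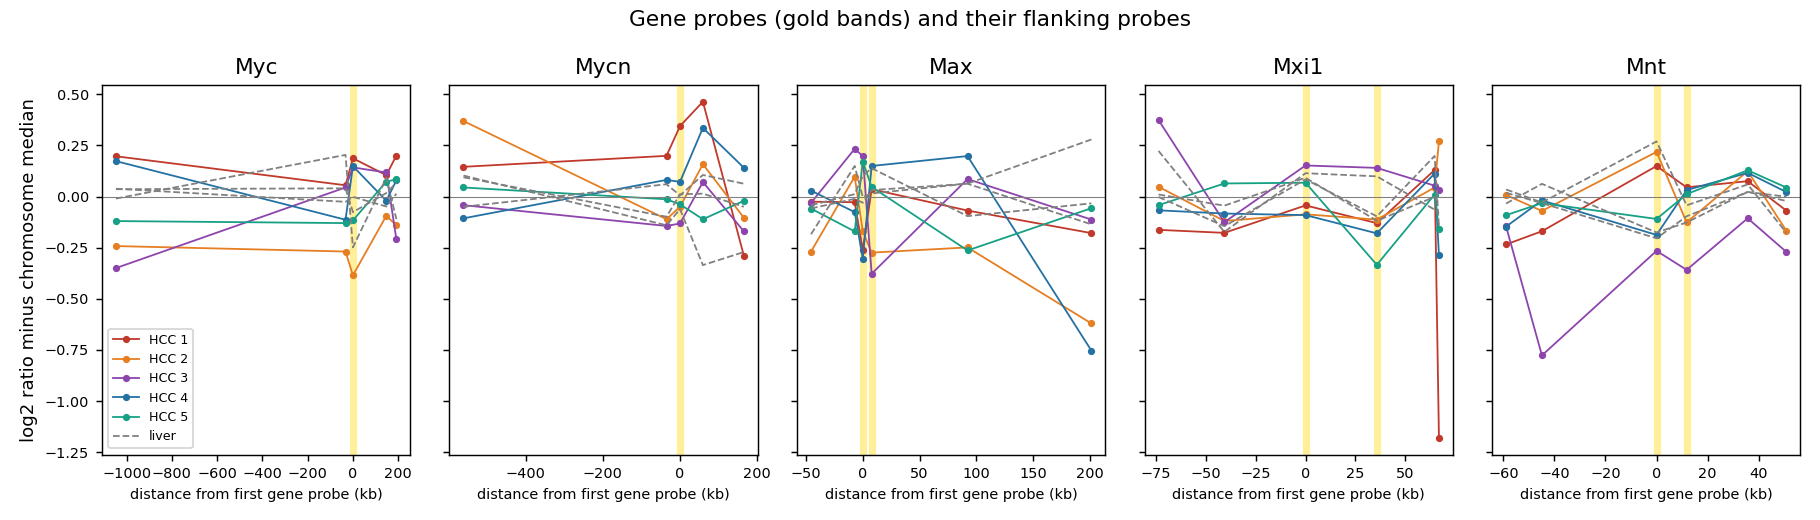
Ratio minus chromosome median (log2, y axis) against distance in kb from the first probe of the gene (x axis) for member probes (gold bands) and 2 flanking probes on either side. Coloured lines are HCC and grey dashed lines unaffected livers. In the Mnt panel HCC 3 lies below 0 at all 6 probes, and in the Mxi1 panel 1 flanking probe of HCC 1 drops to -1.18.

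Segmentation of each chromosome, which joins neighbouring probes of like ratio, put no member in a segment that was 0.3 or more from its chromosome median in any HCC. The largest shifts were 0.16 at Mycn in HCC 1, -0.14 at Myc in HCC 2 and -0.10 at Mnt in HCC 3. Segments that held a member in HCC spanned 214 to 2979 probes. A segment needed at least 5 probes, and each added segment paid a penalty scaled to the noise. A shift of 0.3 confined to the 1 or 2 probes of a member could thus not form one. The Mnt window of HCC 3 was not split off either. Focal changes at a member were therefore not tested by this step. After subtraction of own liver, Chr19 was 1 segment in 5 of 5 HCC, Chr11 in 4 of 5 and Chr15 in 3 of 5.

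The dye orientations were compared because most of these values come from 1 or 2 probes. Among 56 pairs of a member probe and a tissue with both orientations, 25 had a gap above the median gap of all autosomal probes in that tissue and 4 a gap larger than 95% of them. In 7 pairs the orientations had opposite signs with at least 0.1 on both sides. The largest gap was that of Myc in HCC 1, with 0.0081 forward and 1.44 swapped, so that its mean of 0.72 joins a reading near 0 with one of more than 1. The gap of 1.43 exceeded that of 98.1% of probes. In HCC 4 both orientations of Myc were high, at 1.14 and 0.68, and in HCC 5 at 0.30 and 0.61. Gaps of Mycn were smaller, from 0.063 to 0.23.

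**Figure D4:**
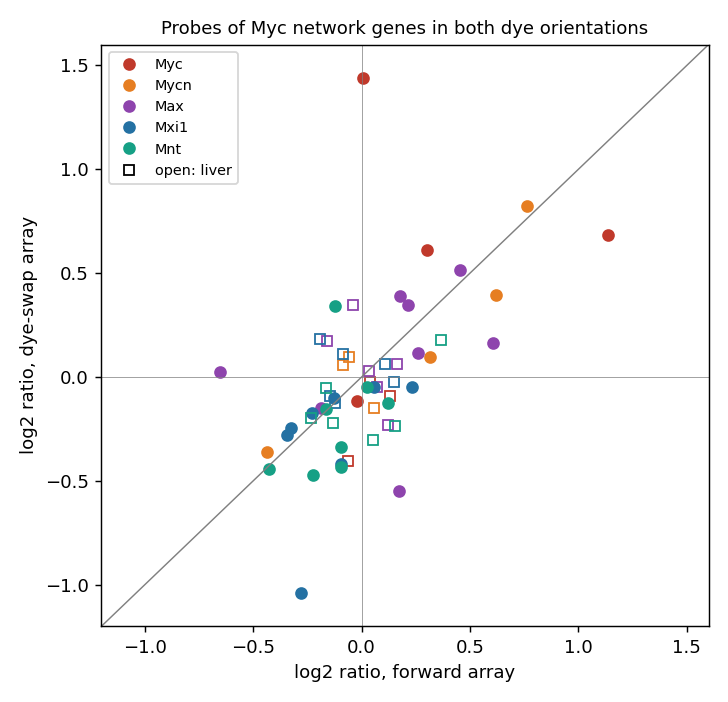
Forward against dye-swap ratio (log2, both axes) of the 8 member probes in 7 tissues. Filled circles are HCC, open squares unaffected livers, and the diagonal marks equal readings. The Myc probe of HCC 1 lies farthest from the diagonal, with 0.0081 forward and 1.44 swapped.

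Over 8 tissues, the ratio of a member correlated with the median of its own chromosome with r of 0.90 for Myc, 0.96 for Mycn, 0.94 for Max, 0.84 for Mxi1 and 0.55 for Mnt. These points share arrays and mice and HCC and livers are pooled, so r is a description only. Among the 100 gene names most like a member, 63 of Myc, 96 of Mycn, 90 of Max, 33 of Mxi1 and 41 of Mnt lay on its own chromosome, which holds 3.98%, 3.54%, 3.54%, 3.47% and 7.81% of all gene names. The most like were AK037510 on Chr18 (r = 0.984), AK028801 and BC052328 on Chr15 for Myc, and Acp1 (r = 0.998) and Ifrd1 on Chr12 for Mycn. For Max they were AK054227, AK014558 and Timm9 on Chr12 and for Mxi1 Lzts2 and BC038663 on Chr19 and Agpat3 on Chr10. For Mnt they were Rtn4rl1 on Chr11 (r = 0.972), Madd on Chr2 and X03019 on Chr11.

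A list of 43 further genes of the network was described in the same way, of which 41 had a probe and Fbl and Cdk4 had none. Limma called 0 of 41 (smallest adjusted p = 0.375, for Skp2). In 3 every HCC lay above every liver and in 2 below, beside the 6.06% and 3.72% of all gene names. None was past 0.3 from its chromosome median in 3 or more HCC and no liver. Nme1, a target gene with 1 probe, averaged -0.74 from the Chr11 median in HCC and -0.62 in livers. It was past 0.3 below that median in 4 HCC, and 2 livers were past 0.3. Its difference was -0.11 (exact permutation p = 0.679). Over the 41 genes the median difference was -0.046 in level and -0.023 minus the chromosome, against -0.0079 and -0.0036 over all gene names.

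The 3 genes with every HCC above were Trrap, Skp2 and Cip2a. Trrap, the scaffold of histone acetyltransferase complexes that Myc recruits, averaged 0.28 ± 0.13 (SD, n = 5) over HCC and -0.014 ± 0.057 (SD, n = 3) over livers. Skp2, a ubiquitin ligase subunit that targets Myc, was at 0.34 ± 0.21 (SD, n = 5) and 0.045 ± 0.051 (SD, n = 3). It lies on Chr15 like Myc, and minus the Chr15 median it was 0.17 lower in HCC than in liver (exact permutation p = 0.107). Cip2a, an inhibitor of the phosphatase that destabilises Myc, was at 0.28 ± 0.13 (SD, n = 5) and -0.021 ± 0.0079 (SD, n = 3). Minus their chromosome medians, the differences of Trrap and Cip2a were 0.15 and 0.095 (exact permutation p = 0.304 for each). The 2 genes with every HCC below were Mycl, a further Myc paralog, at -0.39 ± 0.18 (SD, n = 5) and 0.0061 ± 0.098 (SD, n = 3), and Ldha, a glycolytic target gene, at -0.28 ± 0.16 (SD, n = 5) and 0.099 ± 0.21 (SD, n = 3).

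Within each group the gene with the largest chromosome normalized difference did not pass its test. Among 7 dimer partners it was Mycl with -0.21 (exact permutation p = 0.268). Among 8 activation cofactors it was Kat2a, a histone acetyltransferase, with 0.17 (exact permutation p = 0.464). Among 6 repression cofactors it was Sin3a, the scaffold bound by Mxi1, with -0.11 (exact permutation p = 0.179). Among 7 genes of Myc turnover it was Skp2 with -0.17, and among 13 targets with a probe Ldha with -0.20 (exact permutation p = 0.0893).

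**Figure D5:**
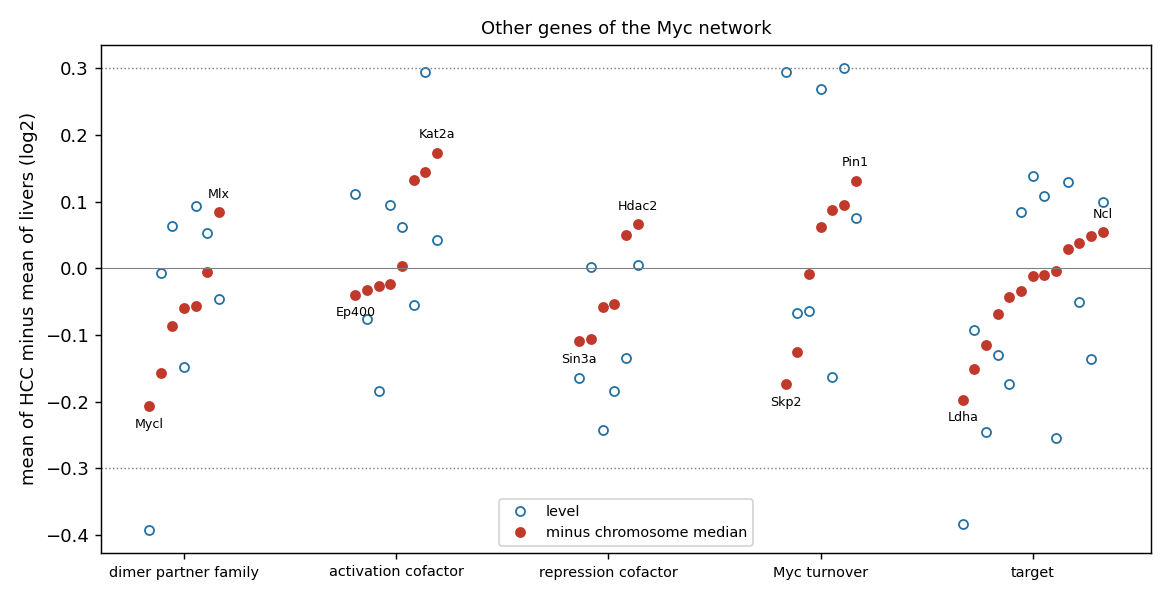
Mean of 5 HCC minus mean of 3 unaffected livers (log2, y axis) for 41 further network genes in 5 groups (x axis). Open blue points are levels and filled red points are minus the chromosome median, with the lowest and highest gene of each group named. Red points span -0.21 (Mycl) to 0.17 (Kat2a), within the dotted lines at ±0.3.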

How the data were processed

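Genomic DNA of 8 tissues was measured on 15 two-colour Agilent arrays. Per the file headers, the authors' processed intensity values were made with Agilent Feature Extraction 9.1.3.1, background-subtracted, detrended and dye-normalised within each array by a method given only as a code. The deposited log10 ratios of the series table match the scanner files' LogRatio (largest difference 5.0e-06), with opposite sign where dyes were swapped, and served as an alternative.

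Log2 of tissue over reference was computed from the processed signals, with signs reversed for swapped dyes. Controls and outlier-marked spots were left out, spots of a probe averaged, each array centred on the median of 40726 autosomal probes without loess, and both orientations averaged to 1 replicate. HCC 3 has 1 array. Median signal over background was 3.78 to 6.88 in green and 3.72 to 7.95 in red, and precision is limited by the number of tissues. Where nothing says that 2 tumours of a mouse are independent, p-values measure only the spread between these tissues. A gene with 2 probes is their mean. Names of genes follow the array design.

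Probes and 19 autosomes were fitted in R 4.3.3 with lmFit and eBayes of limma 3.58.1 (Benjamini-Hochberg, threshold 0.05). Single values were compared by a two-sided exact permutation test over 56 splits, unadjusted. Segments were found by optimal partitioning with a penalty factor of 3 (on the noise variance and the log of the probe number) and at least 5 probes. Steps were run on simulated data as a check of the code. For limma the simulated probes varied independently with equal noise, unlike these, so that run says nothing about power here. Alternatives were normexp (offset 50), the series table, other centrings, each orientation alone, marked spots kept, dim probes left out, each tissue left out, mouse, scan day and slide as blocks, the chromosome mean or the 100 nearest probes as reference, 5 flanking probes, a threshold of 0.5, and segment settings of 2 and 3. The members, lists and rules were chosen with earlier results of these data known. The genes named were the members, genes of flanking probes, the 3 most similar gene names of each member (1 is not reported here), and, of the network list, the largest chromosome normalized difference in each group and any called. The genes whose HCC and livers did not overlap, and Nme1, were named after their values were seen.

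Tissues of the same mouse pair the groups. Probe deviations from group means correlated with r of 0.13 to 0.29 between an HCC and its own liver and of -0.21 to 0.087 with the livers of other mice. Other steps ran in scipy 1.17.1, pandas 2.3.3 and numpy 2.4.6 under Python 3.11.15, and figures in matplotlib 3.10.9.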

Additional observations from a re-analysis of the deposited data

Results flagged for a closer look

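Among 15 measures of the members, 2 had 1 HCC far from the other 4, where chance gives about 1 in 20. Mxi1 minus the Chr19 median was 0.146 in HCC 3 and -0.0867 in the next HCC, a gap of 0.827 of the range against a limit of 0.71. The window of Mnt minus the Chr11 median was -0.321 in HCC 3 and -0.0340 in the next HCC, a gap of 0.901 of the range. HCC 3 is the HCC with 1 array, and its part in both was not tested.

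Max minus own liver was above 0 in HCC 1 and HCC 2, from the female, and below 0 in the 3 HCC of males, with means 0.581 apart. It was singled out because its signs were opposite, and the arms are 1 mouse against 2, so the difference was not tested over mice. The female is also the only mouse with p53(f/+), so sex, genotype and mouse cannot be told apart. The mean of Chr12 minus own liver was 0.44, 0.54, -0.25, 0.095 and -0.38 in HCC 1 to 5. Minus the Chr12 median, Max was below own liver in 5 of 5 HCC.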

How the results depend on the processing

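The count of called probes was 0 under all 19 alternatives, and no segment that held a member passed 0.3 from its chromosome median under 2 other segment settings. Neither of these settings could split off a shift of 0.3 confined to the 1 or 2 probes of a member. The Myc level kept its direction, with exact permutation p from 0.0286 to 0.304. It passed with mode centring (0.52) and without HCC 2 (0.72), the only HCC within the range of the livers, whose removal fixes the p in advance. The Myc level difference ran from 0.47 to 0.72 with 1 tissue left out. Its value with forward arrays alone was 0.35 and with dye-swap arrays alone 0.83. Minus the chromosome, Myc turned to -0.12 on forward arrays and ran from 0.034 to 0.20 with 1 tissue left out. With the replicate block, tumours paired with the liver of their mouse, the Myc difference was 0.57 in level and 0.13 minus the chromosome, and 3 mice give no exact permutation p below 0.25. The block ended no call and turned only Mnt minus the chromosome, to -0.039. The members past 0.3 from the chromosome median fell from 3 to 0 at a threshold of 0.5 and numbered 2 to 3 with 1 tissue left out. On dye-swap arrays alone 1 liver value passed. Blocks give no such counts.

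The differences that turned sign passed the test in none of the settings given here, and the cause was not tested. For the level of Max they were 0.00036 on forward arrays, 0.052 on dye-swap arrays and -0.099 to 0.075 with 1 tissue left out. For the level of Mycn they were -0.19 with slide as a block and -0.0088 to 0.29 with 1 tissue left out. Mycn minus the chromosome was -0.018 with slide as a block and -0.022 to 0.097 with 1 tissue left out. Mnt minus the chromosome was -0.018 with normexp, -0.039 on forward arrays, -0.056 with scan day and -0.084 with slide as a block, and -0.041 to 0.092 with 1 tissue left out. Of the windows, Mxi1 was at 0.016 with normexp, Myc at 0.019 on dye-swap arrays, 0.0040 with 5 flanking probes and -0.065 to 0.028 with 1 tissue left out, and Mnt at 0.027 on dye-swap arrays and -0.073 to 0.0064 with 1 tissue left out.

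The limits are few tissues, 1 or 2 probes a gene, and single probe noise of 0.083 to 0.20. The files name no build, and HCC 3 lacks a swapped array.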
